A study of Mus musculus with 8 samples.

Results

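The DNA replication genes are 43 genes whose products license origins, unwind and copy DNA, supply nucleotides and rebuild chromatin behind the fork. They were chosen by name from a list, and each of the 43 names occurred once among the 55401 genes of the files. They were set against the question of whether activation of Pax7 slows proliferation. RNA levels do not measure proliferation, and no cell counts or DNA synthesis measurements were used here.

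The cells were AtT-20, a mouse pituitary tumour line of corticotrope type, and every group carried ER-Pax7. ER-Pax7 is a fusion of the pioneer transcription factor Pax7 to an estrogen receptor part, and tamoxifen is used to activate it. Its activity was not measured here. The 8 libraries formed 4 groups of n = 2, taken at 0, 24, 48 and 72 h of tamoxifen, with 0 h as the comparison for the rest. Time in culture, tamoxifen itself and any ER-Pax7 activity change together in this design and cannot be told apart. Nothing in the labels tells whether the 2 libraries of a time came from different cultures, and the p-values may therefore reflect technical spread alone. RNA was measured after depletion of ribosomal RNA, and the deposited value of a gene, whose unit is not stated, was read as mean read coverage over merged exons, here called signal. In such bulk RNA, fewer cells in S phase and less RNA per cell cannot be told apart.

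Replication is prepared in G1, when the origin recognition complex, Cdc6 and Cdt1 load the Mcm2 to Mcm7 ring onto DNA. The ring becomes an active helicase when Cdc45 and the GINS complex join it at the start of S phase. Polymerases, the Pcna clamp and its Rfc loader then copy the template. Transcription of many of these genes is driven by E2F factors and is low in cells that have left the cell cycle.

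Promoters of 4 of the 6 helicase ring genes show a sequence feature that was not used to choose the genes. The windows run from 250 bases before to 50 bases after the transcription start, from RefSeq on GRCm38.p6, and are shown because each holds at least 2 matches to an E2F motif, as did 1 other, that of Rfc3. Capitals mark the matches to TTTCCCGC, TTTCGCGC, TTTGCCGC or TTTGGCGC on either strand. They stand at chr1:20820263-20820562 on the minus strand (Mcm3), chr8:75109259-75109558 on the plus strand (Mcm5), chr1:128359656-128359955 on the minus strand (Mcm6) and chr5:138171834-138172133 on the minus strand (Mcm7, the upstream window of 2).
Mcm3: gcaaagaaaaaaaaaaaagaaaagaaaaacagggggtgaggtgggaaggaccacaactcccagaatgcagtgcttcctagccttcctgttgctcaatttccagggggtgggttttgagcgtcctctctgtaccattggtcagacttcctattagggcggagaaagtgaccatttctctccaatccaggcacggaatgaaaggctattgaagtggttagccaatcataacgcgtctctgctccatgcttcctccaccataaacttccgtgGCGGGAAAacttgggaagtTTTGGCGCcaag
Mcm5: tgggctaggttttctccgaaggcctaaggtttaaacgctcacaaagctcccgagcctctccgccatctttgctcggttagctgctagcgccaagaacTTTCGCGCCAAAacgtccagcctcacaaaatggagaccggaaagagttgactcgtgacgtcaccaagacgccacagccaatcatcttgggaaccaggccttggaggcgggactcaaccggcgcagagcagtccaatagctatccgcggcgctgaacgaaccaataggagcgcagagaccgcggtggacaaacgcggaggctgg
Mcm6: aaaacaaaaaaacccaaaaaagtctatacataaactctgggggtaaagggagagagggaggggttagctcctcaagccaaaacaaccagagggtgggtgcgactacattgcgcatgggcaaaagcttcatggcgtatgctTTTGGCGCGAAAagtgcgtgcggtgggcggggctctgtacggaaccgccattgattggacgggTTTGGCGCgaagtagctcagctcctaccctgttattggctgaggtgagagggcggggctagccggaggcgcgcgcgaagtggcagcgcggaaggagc
Mcm7: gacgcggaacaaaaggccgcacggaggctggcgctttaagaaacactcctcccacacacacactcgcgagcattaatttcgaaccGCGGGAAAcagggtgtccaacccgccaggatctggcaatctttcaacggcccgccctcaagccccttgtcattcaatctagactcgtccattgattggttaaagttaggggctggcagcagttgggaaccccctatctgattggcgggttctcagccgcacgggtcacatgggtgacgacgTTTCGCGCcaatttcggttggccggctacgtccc
In Mcm5 and at the first site of Mcm6, matches on opposite strands overlap, so a single longer run of capitals stands for both. The window of Mcm2 and the other window of Mcm7 held no match, and Mcm4 had no window in the table.

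Of the 43 genes, 35 had a window in the RefSeq table, 40 windows in all. An E2F match was present in 13 of these 40 windows (32.5%), against 355 of 8132 windows of tested genes (4.37%) and 744 of all 32851 windows (2.26%). The 13 genes with a match were Orc1, Cdc6 and Cdt1 of the licensing genes, Mcm3, Mcm5, Mcm6 and Mcm7 of the ring, and Gins3, Pola1, Pold1, Pold3, Rfc3 and Lig1. The CCAAT box, searched as CCAAT on both strands, was in 62.5% of the replication gene windows and 39.0% of those of tested genes. Of the other motifs, both searched on both strands, TTTGAA, the letters of the CHR element, was in 10.0% against 12.1%, and TATAAA in 5.0% against 6.6%. A match describes letters in a window and does not show binding. No test was made of these shares.

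If signal is a mean per base, as it was read here, levels can be compared between genes, with the limit that rarely used exons in a gene's merged model lower its value. Across the 8 libraries summed signal was 164236 to 178548, and read depth is not given. Corticotrope genes were present: Pomc, the hormone precursor, stood between 499 and 679 and Tbx19, the corticotrope and melanotrope T-box factor, between 16.3 and 23.2. Receptor genes of pituitary corticotropes were near 0, Crhr1 at up to 0.129 and Avpr1b at up to 0.00253. The 4 melanotrope markers, Pax7, Pcsk2, Drd2 and Oacyl, summed to 13.3 and 13.6 at 0 h and to 14.8 and 15.8 at 72 h. Of these 4, 1 reached a mean signal of 1, and it was not called in the tests below (72 h limma adjusted p = 0.687). What these markers say of ER-Pax7 activity was not tested. The 6 fibroblast markers summed to 0.233 to 0.555 and the 6 immune and endothelial markers to 0.115 to 0.228. Col1a1, at up to 0.537, was the highest of these 12, and those listed at 0 in all 8 libraries included Col1a2, Lum and Cd3e. Of the 6 libraries at 24, 48 and 72 h, 0 had their highest correlation with the other library of their own time, whereas the 0 h libraries correlated best with each other (r = 0.994 across genes).

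The replication genes were expressed throughout. For the 41 of 43 whose mean signal reached 1, the median of the means was 3.67, against 2.65 over all 9606 genes that passed this filter. Levels spanned 39.55 for Pcna to 1.14 for Gins1. The other 2 lay below the filter: Orc1, the largest origin recognition subunit, at a mean of 0.278, and the GINS subunit Gins3 at 0.425.

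**Figure D1:**
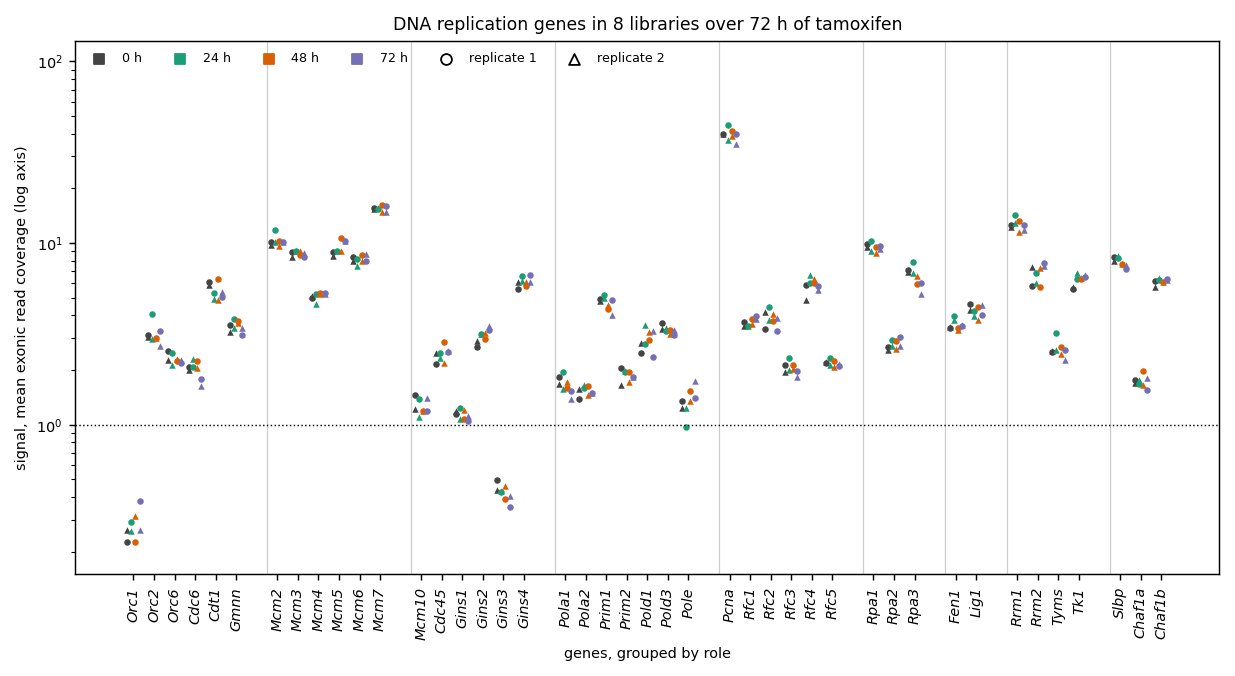
Signal of the 43 replication genes (log axis, mean exonic read coverage) in each of the 8 libraries, grouped by role. Colours give hours of tamoxifen and shapes the replicate, and the dotted line is the filter at a mean of 1. The points of a gene lie close together beside the differences between genes, from 0.278 for Orc1 to 39.55 for Pcna.

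No replication gene passed the test at any time. The 3 comparisons share the 0 h libraries. Changes were tested with limma on log2(signal + 1) over all 9606 genes, with Benjamini-Hochberg adjustment and a threshold of 0.05. At 24 h 0 of 41 genes were called, against a background of 0.229% of all genes, and at 48 h 0 of 41 against 0.552%. At 72 h the count was 0 of 41 against 2.01%, of which 1.27% were called higher and 0.739% lower. A linear trend over the 4 times gave 0 of 41 against 2.15% (1.37% higher and 0.781% lower), and an F test for a change at any time 0 of 41 against 0.344%. With backgrounds this low, a count of 0 among 41 genes is near the background. At an unadjusted limma p under 0.05 there were 4 genes at 24 h (background 13.2%), 1 at 48 h (10.5%), 6 at 72 h (15.7%), 7 for the trend (16.3%) and 5 in the F test (13.9%).

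On the scale of log2(signal + 1), the differences were small in both directions. All log2 changes given here are on this scale, which understates changes of genes with low signal. At 72 h the mean of Pola1 was 0.834 times that at 0 h, with a log2 change of -0.16. For Pole these values were 1.21 times and 0.16. At 24 h the median log2 change was 0.05, with 27 of 41 genes above 0 (65.9%), beside 0.01 and 55.7% over all tested genes. At 48 h it was 0.02 with 24 above 0 (58.5%), beside 0.00 and 52.3%. At 72 h it was -0.03 with 17 above 0 (41.5%), beside 0.01 and 53.3%. The 72 h median was 0.02 without the first 72 h library and 0.00 without the first 0 h library, so its sign rests on single libraries. Both 24 h libraries lay above both 0 h libraries for 14 genes and below for 3, where the background was 24.4% and 17.8%. These counts were 7 and 7 at 48 h (24.3% and 22%) and 11 and 8 at 72 h (27.4% and 22.4%).

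The intervals give a range for the change of each gene's signal, judged by the spread between the 2 libraries of a time. If that spread is technical alone, they are too narrow for changes between cultures. For Fen1, Gins2 and Chaf1a, 84.2%, 67.3% and 52.5% of the exonic bases lie in exons of other genes. In all, 9 of the 43 genes share over 10% in this way. Intervals of such genes may therefore cover signal of the overlapping genes too. Expressed as a ratio of the 0 h signal, the 95% interval from limma lay above 50% for 41 of 41 genes at 24, 48 and 72 h. It lay above 75% for 38 genes at 24 h, 40 at 48 h and 35 at 72 h. The lowest bounds were 63.5% of the 0 h signal for Pole at 24 h, 68% for Mcm10 at 48 h and 67% for Pola1 at 72 h. Each interval covers 1 gene at a time and is not adjusted for the number of genes. A fall of 20% lay outside the interval of 36, 33 and 26 of the 41 genes at 24, 48 and 72 h, and inside it for the rest. On the upper side a rise of 50% lay outside the interval of 40 of 41 genes at each time, and a rise of 25% outside that of 30, 35 and 34. The highest bounds were 1.56 times the 0 h signal for Pold1 at 24 h, 1.53 times for Pold1 at 48 h and 1.51 times for Pole at 72 h.

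**Figure D2:**
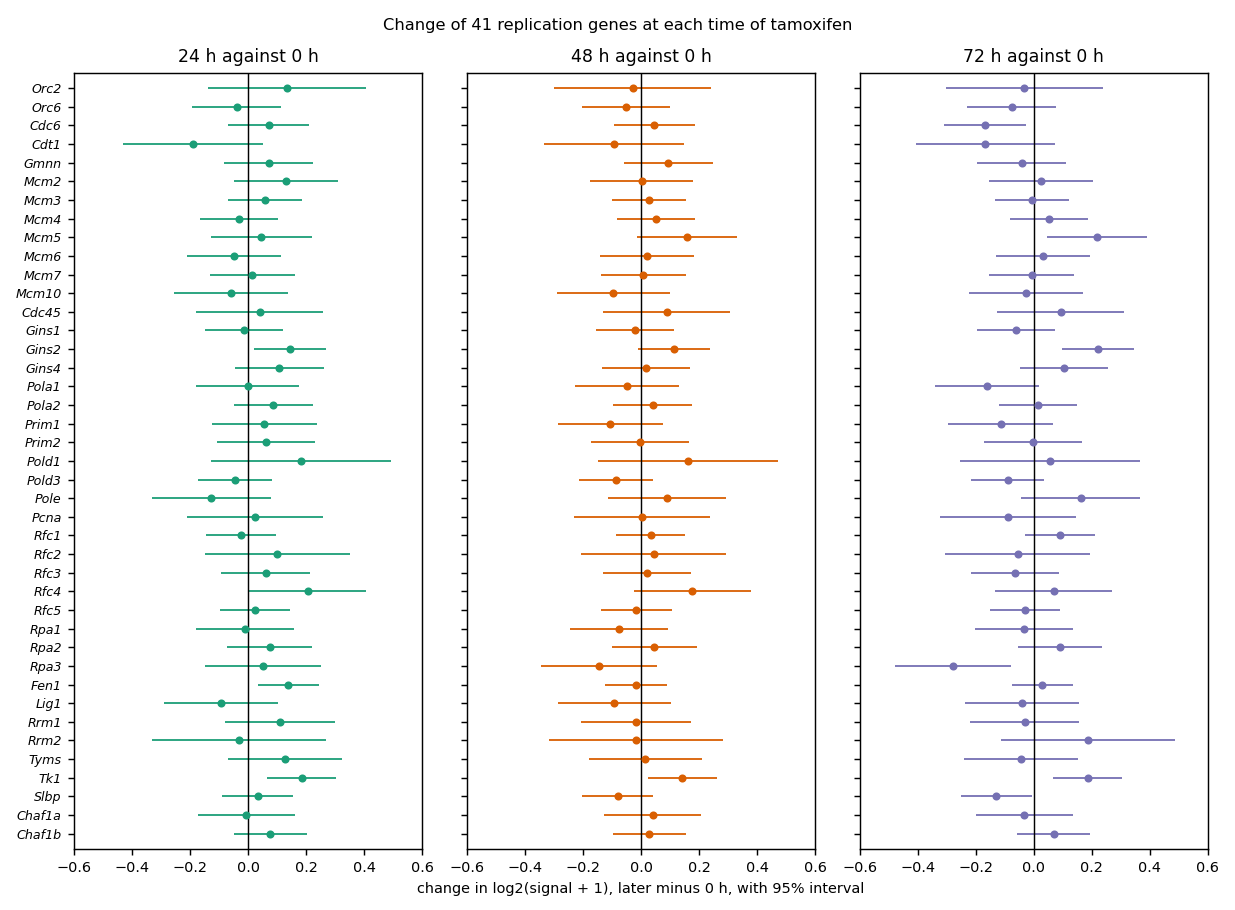
Change in log2(signal + 1) from 0 h for the 41 tested replication genes at 24, 48 and 72 h, with points for the estimate and bars for the 95% interval of the limma fit (n = 2 per group). Most bars cross 0, and the estimates at 72 h run from -0.28 for Rpa3 to 0.22 for Gins2.

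Licensing genes came first in order of action. Cdt1, which brings the ring to origins, had 6.12 and 5.85 at 0 h, 5.30 and 4.94 at 24 h, 6.34 and 4.84 at 48 h, and 5.06 and 5.39 at 72 h. Its 48 h libraries were its highest and lowest, while those at 24 and 72 h lay below both 0 h libraries. The 24 h change was log2 -0.19 (limma adjusted p = 0.472), and the 72 h change log2 -0.17 (limma adjusted p = 0.499). Cdc6, the ATPase that works with Cdt1, had 2.08 and 2.001 at 0 h, 2.08 and 2.31 at 24 h, 2.23 and 2.04 at 48 h, and 1.79 and 1.63 at 72 h. Only its 72 h libraries stood below the 0 h libraries, with log2 -0.17 (95% interval -0.31 to -0.03, limma adjusted p = 0.230). Gmnn, the inhibitor of Cdt1 that blocks relicensing, stood between 3.13 and 3.81 with overlapping groups at 72 h. Orc2 had 4.06 in the first 24 h library and 2.72 to 3.28 in the other 7, and 29.8% of its exonic bases lie in exons of Nif3l1. The 72 h change was negative for all 5 tested licensing genes, with a median of -0.08, and was called in none. Of all tested genes, 53.3% had a positive 72 h change. For Orc2 and Gmnn the negative sign rests on single libraries. At 24 and 48 h, 3 and 2 of these 5 genes had a positive change. A shared sign was not unique to this group, and it was not tested. The change was positive for all 6 ring genes at 48 h and all 5 tested S phase cyclins and kinases at 24 h. Orc1, tested without the filter, had 0.245 ± 0.028 at 0 h and 0.323 ± 0.0826 at 72 h (SD, limma adjusted p = 0.724).

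Next came the ring itself. The summed signal of Mcm2 to Mcm7 was 56.8 and 55.0 at 0 h, 58.8 and 56.0 at 24 h, 59.6 and 55.8 at 48 h, and 58.1 and 57.9 at 72 h. These sums overlapped at 24 and 48 h, and both 72 h sums were the higher. Mcm7, its most abundant subunit, had 15.5 and 15.3 at 0 h, 15.5 and 15.7 at 24 h, 16.1 and 14.9 at 48 h, and 16.0 and 14.7 at 72 h. The 72 h libraries enclosed both 0 h values, and the interval ran from -10.7% to 10.8% of the 0 h signal (limma adjusted p = 0.974). Exons of Ap4m1, Cops6 and 2 microRNA genes cover 12.6% of the exonic bases of Mcm7. Mcm5 had 8.99 and 8.49 at 0 h, 9.07 and 9.01 at 24 h, 10.7 and 9.10 at 48 h, and 10.3 in each 72 h library. Every later library was above both at 0 h, and the 72 h change was log2 0.22 (SE 0.07, interval 0.04 to 0.39, limma adjusted p = 0.212). Mcm2, Mcm3, Mcm4 and Mcm6 had 72 h changes of 0.03, -0.01, 0.05 and 0.03.

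The subunits did not have equal signal. Mean levels over the 8 libraries ordered as Mcm7 at 15.5, Mcm2 at 10.2, Mcm5 at 9.49, Mcm3 at 8.77, Mcm6 at 8.15 and Mcm4 at 5.14. Mcm7 lay above, and Mcm4 below, each of the other subunits in all 8 libraries, whereas the ranges of Mcm2 and Mcm5, of Mcm5 and Mcm3, and of Mcm3 and Mcm6 overlapped.

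Among the genes that turn the ring into a helicase, Gins2 came nearest to the threshold. This GINS subunit had 2.68 and 2.87 at 0 h, 3.17 in each 24 h library, 2.95 and 3.21 at 48 h, and 3.33 and 3.48 at 72 h. All 6 later libraries were above both at 0 h, and the 72 h change was log2 0.22 (SE 0.05, interval 0.10 to 0.35, limma adjusted p = 0.0972). Of its exonic bases, 67.3% lie in exons of Gse1, whose signal had a similar course: 2.59 and 2.71 at 0 h, 3.06 and 3.04 at 24 h, 2.74 and 3.03 at 48 h, and 3.23 and 3.39 at 72 h. Whether reads of the 2 genes were separated is not stated, and the part of Gse1 in the Gins2 values was not tested. Gins4, the most abundant of this group and free of such overlap, had 5.62 and 6.14 at 0 h, 6.61 and 6.20 at 24 h, 5.83 and 6.09 at 48 h, and 6.68 and 6.11 at 72 h. Its 0 h and 72 h libraries overlapped (log2 0.10, limma adjusted p = 0.504). Cdc45 stood between 2.15 and 2.87, Gins1 between 1.05 and 1.23, and Mcm10, which joins the ring to the polymerase, between 1.10 and 1.47. Gins3 stood at 0.498 and 0.440 before tamoxifen, against 0.351 and 0.404 after 72 h (limma without the filter, log2 -0.09 and adjusted p = 0.614).

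Polymerase and primase genes had mean levels of 1.36 to 4.70. Prim1, the catalytic primase subunit, had 4.91 and 4.80 at 0 h, 5.18 and 4.99 at 24 h, 4.32 and 4.56 at 48 h, and 4.86 and 4.0 at 72 h. The 24 h libraries were above and the 48 h libraries below those at 0 h, and the 72 h libraries overlapped them (log2 -0.11, limma adjusted p = 0.538). Pole, the catalytic subunit of the leading strand polymerase, had 1.36 and 1.24 at 0 h, 0.974 and 1.24 at 24 h, 1.54 and 1.354 at 48 h, and 1.41 and 1.75 at 72 h. It varied most of the tested 41, by 1.79-fold from lowest to highest library, and its 72 h change was log2 0.16 (limma adjusted p = 0.434). Pola1, the catalytic subunit of the priming polymerase, differed in the other direction, from 1.84 and 1.68 at 0 h to 1.54 and 1.39 at 72 h (log2 -0.16, limma adjusted p = 0.365). Pold1, Pold3, Pola2 and Prim2 had 72 h changes of 0.06, -0.09, 0.01 and 0.00.

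Pcna, the sliding clamp and a common marker of proliferating cells, was the most abundant member. It had 40.1 and 39.8 at 0 h, 44.5 and 36.9 at 24 h, 41.2 and 38.9 at 48 h, and 39.8 and 35.3 at 72 h. Its libraries at 24 h lay on either side of the 0 h pair, and the 72 h interval ran from -20.6% to 10.8% of the 0 h signal (limma adjusted p = 0.743). Rfc1, the large subunit of the clamp loader, had 3.70 and 3.48 at 0 h, 3.5 and 3.52 at 24 h, 3.82 and 3.57 at 48 h, and 3.96 and 3.81 at 72 h. Both 72 h libraries were above the 0 h pair (log2 0.09, limma adjusted p = 0.465). Rfc2 to Rfc5 had 72 h changes between -0.06 and 0.07, all with overlapping groups except Rfc5, whose 72 h libraries of 2.09 and 2.15 lay just below the 2.175 and 2.201 of 0 h. Exons of Lat2 cover 15.1% of the exonic bases of Rfc2, those of Eif4a2 12.7% of Rfc4, and those of Wsb2 10.7% of Rfc5.

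Single-stranded DNA is held by the 3 subunits of replication protein A. Rpa1, the large subunit, had 9.92 and 9.51 at 0 h, 10.3 and 9 at 24 h, 9.47 and 8.85 at 48 h, and 9.67 and 9.25 at 72 h, with overlapping groups at 72 h (limma adjusted p = 0.885). Rpa3, the smallest subunit, had 7.11 and 6.95 at 0 h, 7.82 and 6.84 at 24 h, 5.94 and 6.60 at 48 h, and 6.03 and 5.23 at 72 h. All 4 libraries at 48 and 72 h were below those at 0 h. Its 72 h change was the most negative of the 41, at log2 -0.28 (SE 0.09, interval -0.48 to -0.08, limma adjusted p = 0.170), and the trend was -0.10 per 24 h (limma adjusted p = 0.119). Rpa2 had a 72 h change of 0.09. The summed signal of the 3 genes was 19.7 and 19.0 at 0 h and 18.7 and 17.2 at 72 h.

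Okazaki fragments are trimmed by Fen1 and sealed by Lig1. Lig1 had 4.61 and 4.26 at 0 h, 4.23 and 3.96 at 24 h, 4.44 and 3.78 at 48 h, and 3.998 and 4.59 at 72 h (72 h log2 -0.04, limma adjusted p = 0.883). Its 72 h libraries overlapped those at 0 h. Fen1 had 3.40 and 3.45 at 0 h, 3.97 and 3.78 at 24 h, 3.42 and 3.32 at 48 h, and 3.501 and 3.53 at 72 h, with a 24 h change of 0.14 (limma adjusted p = 0.288). Exons of other genes, Tmem258 and Gm10143, cover 84.2% of its exonic bases.

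Among the nucleotide supply genes, Tk1 encodes the thymidine salvage kinase. Like Orc2, Pola1, Rfc5 and Fen1 above, it is described by a choice made after its values were seen. Tk1 had 5.62 and 5.74 at 0 h, 6.37 and 6.81 at 24 h, 6.32 and 6.42 at 48 h, and 6.49 and 6.71 at 72 h. All 6 later libraries exceeded both 0 h libraries, by log2 0.18, 0.14 and 0.19 at the 3 times (limma adjusted p = 0.229, 0.366 and 0.129). Rrm1, the large subunit of ribonucleotide reductase, had 12.6 and 12.3 at 0 h, 14.2 and 12.9 at 24 h, 13.2 and 11.5 at 48 h, and 12.5 and 11.8 at 72 h, with overlapping groups at 72 h (limma adjusted p = 0.906). Rrm2, its S phase regulated partner, had 5.84 and 7.38 at 0 h, 6.81 and 6.005 at 24 h, 5.72 and 7.32 at 48 h, and 7.73 and 7.50 at 72 h. The 0 h mean was 6.61 ± 1.09 (SD), both 72 h libraries were above that pair, and the 72 h change was log2 0.19 (SE 0.13, limma adjusted p = 0.548). Tyms, which makes thymidylate, had a 72 h change of -0.04.

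Histone supply was represented by Slbp, which binds the stem-loop of replication-dependent histone mRNAs. Slbp had 8.38 and 7.96 at 0 h, 8.31 and 8.45 at 24 h, 7.63 and 7.72 at 48 h, and 7.17 and 7.60 at 72 h. The 48 and 72 h libraries were below both at 0 h, with a 72 h change of log2 -0.13 (SE 0.05, interval -0.25 to -0.01, limma adjusted p = 0.294). The chromatin assembly factor genes Chaf1a and Chaf1b had 72 h changes of -0.03 and 0.07, and 52.5% of the exonic bases of Chaf1a lie in exons of Ubxn6.

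Spread was also read library by library. Of the 41 genes, 40 varied less than 1.5-fold from the lowest to the highest of the 8 libraries (97.6%), as did 88.7% of all tested genes. The first 24 h library held the highest value of 16 of the 41 genes (39%), as it did for 28.9% of all tested genes. There 33 of 41 lay above their own mean (80.5%), as did 57.9% of all tested genes. The median deviation in that library was 0.04 for the replication genes and 0.02 for all tested genes. In the other 24 h library these medians were -0.01 and -0.01. The summed signal of all 43 genes was 234 and 230 at 0 h, 249 and 231 at 24 h, 238 and 229 at 48 h, and 233 and 227 at 72 h, and these sums overlapped at every time.

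**Figure D3:**
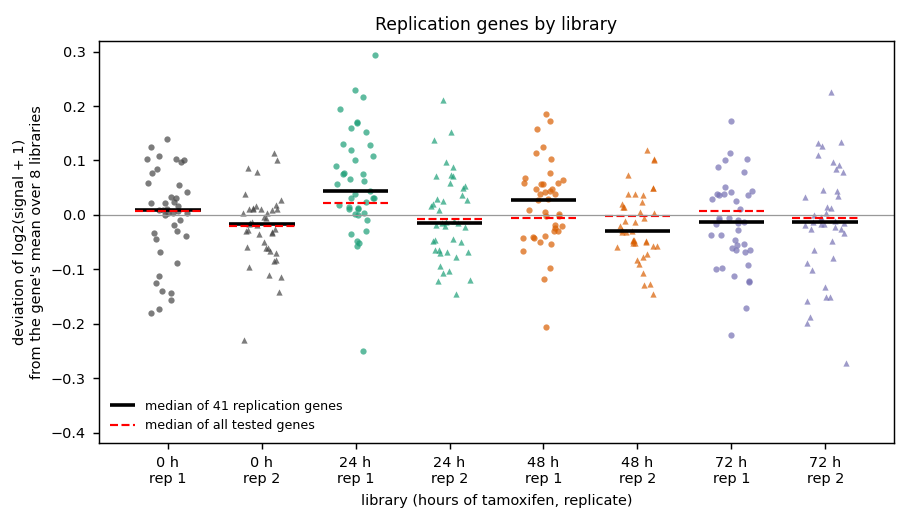
Deviation of log2(signal + 1) from the gene's own mean over 8 libraries, for the 41 tested replication genes in each library. Black bars are their medians and dashed red bars the medians of all 9606 tested genes, and the highest median, 0.04, is in the first 24 h library.

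Other genes of the replication and cell cycle programme were read from lists in the same limma fit. Of 40 further replication genes, 33 were tested and 0 were called higher or lower at any time. The same count of 0 held for 9 of 13 E2F and pocket protein genes, 5 of 7 S phase cyclins and kinases, 15 of 15 mitosis and proliferation markers, and 6 of 7 CDK inhibitors that passed the filter. Median 72 h changes of these lists were -0.03, 0.07, 0.01, -0.03 and -0.02. At an unadjusted limma p under 0.05 the 72 h counts were 2 of 33, 0 of 9, 0 of 5, 3 of 15 (20%) and 0 of 6, beside 15.7% of all tested genes. Of the 15 mitosis and proliferation markers, 12 had a positive change at 24 h, as did 55.7% of all tested genes. At 72 h 10 had a negative and 5 a positive change, from -0.22 to 0.23, and 53.3% of all tested genes had a positive one. E2f1, the main activating E2F, had 6.74 ± 0.0479 at 0 h and 6.97 ± 0.310 at 72 h (SD). Mki67, the proliferation antigen Ki-67, had 13.1 ± 0.6 and 12.96 ± 0.229 (SD). These 2 were named after their values were seen and do not stand for their lists.

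Pole2, a subunit of the same polymerase as Pole, stood apart from the rest and is named for that reason. It had 70.0 and 314 at 0 h, 15.5 and 62.5 at 24 h, 0.728 and 69.1 at 48 h, and 2.51 and 2.15 at 72 h (72 h log2 -5.49, limma adjusted p = 0.152). Its neighbours Lrr1 and Klhdc1 had nearly the same values where it was high, such as 314 each in the second 0 h library. What this says of Pole2 was not tested, and the gene is left out of the plot of list changes.

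**Figure D4:**
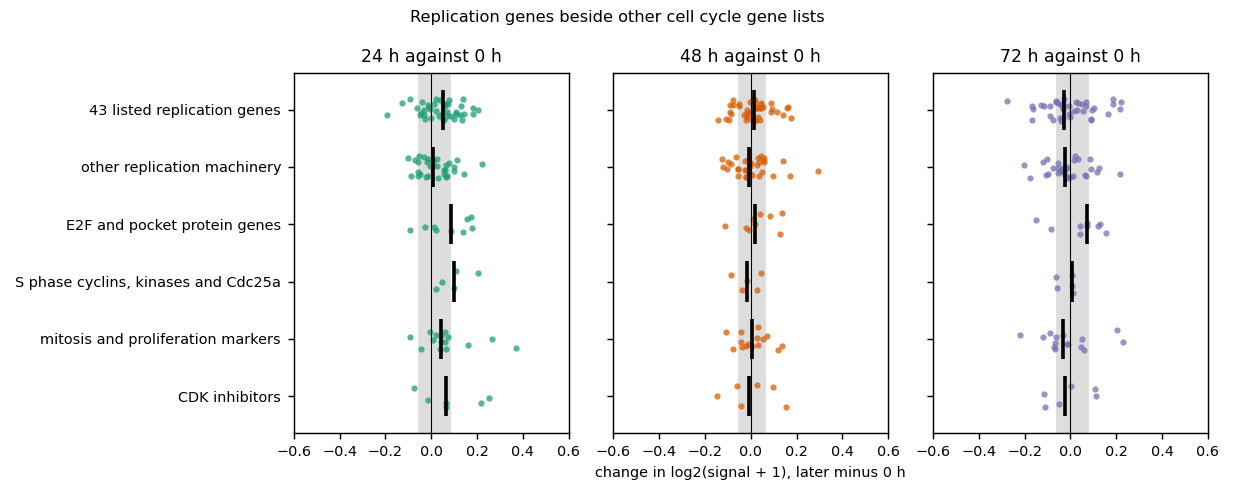
Change in log2(signal + 1) at 24, 48 and 72 h against 0 h for genes of 6 lists, with 1 point per tested gene except Pole2. Black bars are medians, also without Pole2, and the grey band is the middle 50% of all 9606 tested genes. The median of the 43 listed replication genes (41 tested) moves from 0.05 at 24 h to -0.03 at 72 h and stays inside the band. The band shows the spread of single genes, and a median of 41 genes varies less, so its place there is no test of a shared shift.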

How the data were processed

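RNA from 8 libraries of AtT-20 cells with ER-Pax7 was analysed from 1 table per library. Each deposited value was taken to be a signal, mean read coverage over merged exons, scaled by the authors. The sources used here do not state how it was scaled, which tool counted reads or whether strand was used. Per the submitters' processing notes, the builds were mm10 and GRCm38 and the tools deepTools 3.5, HISAT2 2.2 and SAMtools 1.12. The molecule label names genomic DNA, while the extraction protocol describes RNA. All 43 genes have the coordinates of GENCODE M21.

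Samples were grouped by title. The 9606 genes whose mean signal reached 1 entered 1 limma 3.58.1 fit in R 4.3.3 on log2(signal + 1), a scale that understates changes of low genes, with group as the only term, an intensity trend and 4 residual degrees of freedom. Adjusted p-values are Benjamini-Hochberg over all tested genes at 0.05. Intervals were converted to percent of the 0 h signal. The code of the fit was run on simulated data with independent noise, which does not show what sizes of change these libraries could reveal. The 9 role groups, the lists and the naming rule (every called member, and in each role group the most abundant gene and the tested gene with the largest 72 h change) were chosen with earlier results of these data known. Genes below the filter were tested without it. Replicate numbers were not treated as pairs. Alternatives were 15 in number. Figures used matplotlib 3.10.9.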

Additional observations from a re-analysis of the deposited data

How the results depend on the processing

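No alternative of the 15 gave a call for any of the 41 replication genes that passed the filter, in the 3 comparisons, the trend or the F test. Orc1 and Gins3 were tested only without the filter and with the minimum mean of 0.1, and were not called there. Leaving the F test aside, the lowest adjusted p was 0.0598, for the trend of Rpa3 without the second 24 h library. The 95% interval of each of the 41 tested genes stayed above 50% of the 0 h signal in every alternative; its lowest bound was 53%, for Pole at 24 h without the second 24 h library. Of 2460 values of single genes in the 3 comparisons and the trend, 120 changed sign, all of them uncalled.

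Counts over all genes, which form the background, depended more on the setting. Without a filter they were 4, 5 and 63 at 24, 48 and 72 h, 57 for the trend and 6 for the F test, in place of 22, 53, 193, 207 and 33. With a minimum mean of 0.1 they were 87 at 48 h and 66 for the F test. With the replicate number as a block, 24 genes were called at 48 h and the other counts stayed within 1.5-fold; this block rests on shared numbers alone, with correlations of same-numbered deviations from -0.0163 to 0.402. For 5 of the 6 libraries at 24, 48 and 72 h the library with the highest correlation carried the same number, a hint from the data and not from the design. Leaving out 1 library at a time gave 2 to 104 at 24 h, 2 to 95 at 48 h, 9 to 320 at 72 h, 9 to 377 for the trend and 3 to 167 for the F test. Omitting any 1 of the 8 libraries moved at least 1 of these counts by over 1.5-fold; the lowest counts came without a 0 h library and the highest without a 24 h library. The cause was not tested. A group reduced to 1 library was assumed to vary like the others. Read depth is unknown, so counting error could not be separated from other spread.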
